A study of Mus musculus with 4 samples.

Results

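miR-185 and miR-1306 are a pair of mouse miRNA hairpins on chromosome 16, in the stretch that corresponds to the human 22q11 region. The members were chosen by name, as the rows of the deposited table that are an arm of miR-185 or miR-1306, which gave 4 of 942 mature miRNAs (miR-185-5p, miR-185-3p, miR-1306-5p and miR-1306-3p). Small RNA was sequenced from the brain cortex of 4 mice of the B6C3 strain aged 9 months, with 2 wild-type animals (WT1 and WT2) beside 2 AD mice transgenic for APPswe and PS1ΔE9 (APP3 and APP4). The study directed both transgenes to neurons of the central nervous system, and named WT1 with APP4 and WT2 with APP3 as sibling pairs. No treatment separated the mice, and each library came from a single animal, so a difference within a sibling pair has no replicate check. Levels are given as RPM, reads per 1000000 reads counted on miRNAs, and in whole cortex a lower level in every cell and a smaller share of the cells that make a miRNA cannot be told apart.

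A miRNA hairpin is cut out of its primary transcript by the Microprocessor, in which DGCR8 binds the RNA and DROSHA cleaves it, and Dicer then releases a duplex with one strand from each arm. One arm is usually kept in Argonaute, and its seed, the bases near its 5′ end, pairs with target mRNAs. The gene of DGCR8 lies within the 22q11 region, and mice that model the deletion have less miR-185 in the brain, where miR-185-5p is known to act on Atp2a2, the calcium pump SERCA2, and on Emc10. In other tissues miR-185-5p is known to act on Scarb1, a lipoprotein receptor. The hairpin of miR-1306 is part of the mRNA of Dgcr8 itself, and miR-1306-3p has been reported to act on ADAM10, an α-secretase that cuts APP.

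RefSeq (GRCm38.p6) held a mature sequence for 3 of the 4 members. They are shown here because the arms of these hairpins are compared throughout. Each is written 5′ to 3′, with the seed (bases 2 to 8) in capitals.
miR-185-3p: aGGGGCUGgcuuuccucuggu
miR-1306-5p: cACCACCUccccugcaaacgucc
miR-1306-3p: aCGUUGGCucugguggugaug
The 3 seeds differ from each other, and 0 of the other miRNAs of the table with a RefSeq sequence share one of them (754 of the 942 had a sequence). Their G and C content was 61.9% for miR-185-3p, 65.2% for miR-1306-5p and 57.1% for miR-1306-3p, beside a median of 50% over the 754 miRNAs. Of those miRNAs, 86.3% had a lower G and C content than miR-185-3p and 92.0% had a lower one than miR-1306-5p.

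In the GENCODE vM21 annotation of GRCm38, Mir185 spans bases 18327401 to 18327465 of chromosome 16 on the minus strand and is intronic to Tango2. Mir1306 spans bases 18284239 to 18284317 of the same strand, inside the coding part of exon 2 of Dgcr8 in 2 protein-coding transcripts. The hairpins are 43083 bases apart, and 0 annotated genes lie between Dgcr8 and Tango2. Of the 513 hairpins of the table that could be placed by name, 220 lay in introns of protein-coding genes and 4 lay wholly within a coding exon. Summed over both arms, Mir1306 was the second of those 4 by mean level, with 4.46 RPM, and Mir671, in Chpf2, was the first with 249 RPM. Mir185, with a mean of 116 RPM, held rank 65 among the 220 intronic hairpins.

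The libraries held between 19048747 and 26085776 miRNA reads, at which 3 reads correspond to between 0.115 and 0.157 RPM. The brain miRNAs miR-124-3p, miR-9-5p, miR-128-3p and miR-138-5p summed to between 72692 and 80270 RPM in each library. miR-138-5p was at 1666 RPM (WT1), 2447 RPM (WT2), 3948 RPM (APP3) and 3174 RPM (APP4). Both AD mice were thus above both WT mice for it, as for 27% of 623 miRNAs, and the genotypes overlapped for the others. APP4 stood apart for miRNAs of epithelium, whose summed level (miR-200a-3p, miR-200b-3p, miR-200c-3p, miR-141-3p and miR-429-3p) was 1108 RPM there and between 45.4 and 64.5 RPM in the others.

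The members differed widely in level, in the same order in all 4 libraries. miR-185-5p was the most abundant, and its level was 106.4 RPM for WT1 and 129.9 RPM for WT2, against 68.3 RPM for APP3 and 117.9 RPM for APP4. APP3 was the lowest and WT2 the highest, and the second AD mouse lay between the WT mice, so the genotypes overlapped. miR-185-3p, from the other arm, was at 10.2 RPM (WT1) and 8.92 RPM (WT2) in the wild-type mice and at 10.96 RPM (APP3) and 13.0 RPM (APP4) in the AD mice. Both AD mice were above both WT mice for miR-185-3p, by a margin of less than 1 RPM between WT1 and APP3.

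The arms of miR-1306 were scarcer. miR-1306-5p reached 2.88 RPM (WT1) and 4.44 RPM (WT2) in the wild-type mice and 3.95 RPM (APP3) and 3.52 RPM (APP4) in the AD mice, so both AD mice lay between the WT mice. miR-1306-3p, the arm reported to act on ADAM10, was at 0.460 RPM (WT1) and 0.589 RPM (WT2), and at 0.940 RPM (APP3) and 1.05 RPM (APP4). These values rest on 12, 13, 20 and 20 reads, and although both AD mice were above both WT mice, the exact 95% Poisson interval of WT2 (0.314 to 1.01 RPM) reached past the value of APP3. Intervals and SEs from reads cover counting error only, and not the variation between mice. They can be too narrow even for that error, since PCR copies of 1 molecule are not independent.

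**Figure D1:**
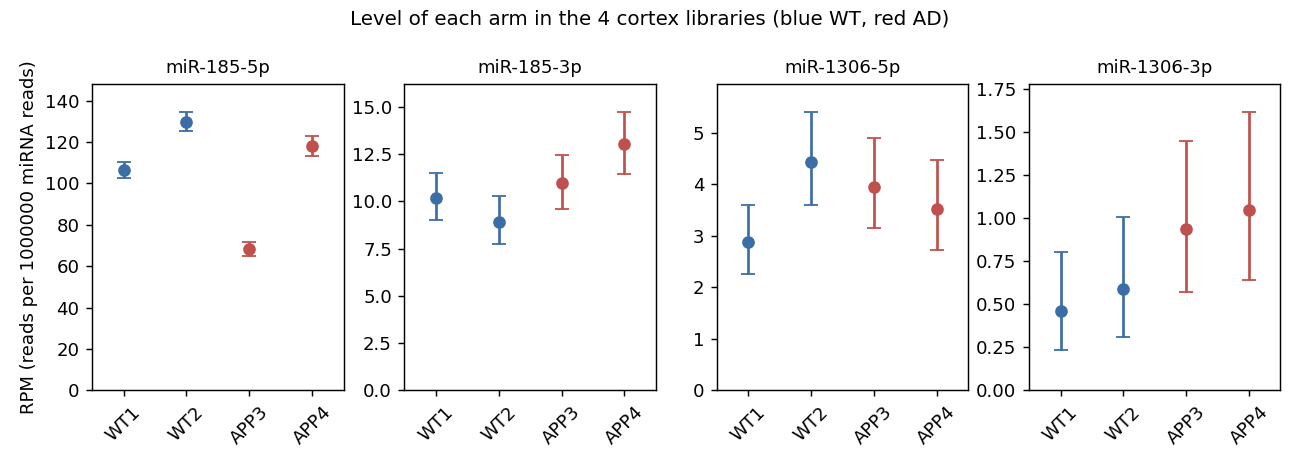
Level of each arm in RPM (vertical axes from 0, one panel per arm) in the libraries WT1 and WT2 (blue) and APP3 and APP4 (red), with exact 95% Poisson intervals. APP3 stands below the other 3 libraries for miR-185-5p at 68.3 RPM, and the intervals of miR-1306-3p, with 12 to 20 reads, overlap between the genotypes.

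Neighbours in this order did not overlap in any library. The lowest Poisson limit of miR-185-3p, 7.72 RPM, was above the highest limit of miR-1306-5p, 5.41 RPM, and the lowest limit of miR-1306-5p, 2.26 RPM, was above the highest of miR-1306-3p, 1.62 RPM. By mean level miR-185-5p ranked 211 of 942 miRNAs, between miR-673-3p and miR-543-3p, and miR-185-3p ranked 374, between miR-412-5p and miR-29b-2-5p. miR-1306-5p ranked 445, between miR-1191 and miR-5109, and miR-1306-3p ranked 574, between miR-467b-5p and miR-3096b-5p. Reads of different miRNAs can be ligated with unequal yield, so this order is one of read counts and not of molecules.

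**Figure D2:**
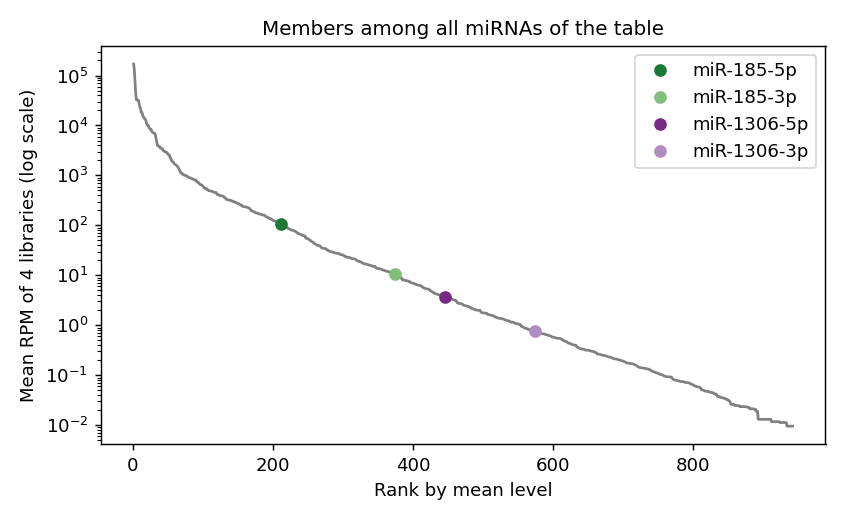
Mean RPM of the 4 libraries (log axis) against rank for all miRNAs of the table (grey line), with the 4 members as points. miR-185-5p is at rank 211 and miR-1306-3p at rank 574.

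Within sibling pairs, the reads of each miRNA were compared with the other miRNA reads with Fisher's exact test (two-sided). A call needed a false discovery rate (FDR, Benjamini-Hochberg) under 0.05 together with a change of 1.5-fold or more. The test compares 2 libraries and not the genotypes. Between APP4 and WT1, 0 of the 4 members were called, where 11.6% of the 899 miRNAs tested were called. Between APP3 and WT2, 1 of the 4 members was called, where 6.81% of 896 miRNAs were called.

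The called member was miR-185-5p, which fell from 129.9 RPM in WT2 to 68.3 RPM in APP3, a log2 fold change of -0.93 (SE 0.05, FDR 3.10e-92). In the other sibling pair it was 0.15 (SE 0.04) higher in APP4 than in WT1 on the log2 scale, a 1.11-fold difference that passed the FDR (9.77e-04) and not the fold limit, and that turned to -0.11 with library sizes corrected by TMM, which sets the typical miRNA equal between libraries. The change in APP3 was also called against WT1 (log2 fold change -0.64, SE 0.05), with which APP3 is not a sibling. APP4 was not called against WT2 (log2 fold change -0.14). miR-185-5p was called between the AD mice themselves, with a log2 fold change of 0.79 (SE 0.05) in APP4 over APP3. The difference of miR-185-5p was thus one of the library of APP3 from the other 3 libraries.

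The other members were called in neither sibling pair. The log2 fold change of miR-185-3p was 0.35 (SE 0.13) for APP4 over WT1, and for APP3 over WT2 it was 0.30 (SE 0.14), under the fold limit in both. That of miR-1306-5p was 0.29 (SE 0.24) and -0.17 (SE 0.21). miR-1306-3p had log2 fold changes of 1.17 (SE 0.52, FDR 0.0716) for APP4 over WT1, and for APP3 over WT2 0.66 (SE 0.51, FDR 0.420), past the fold limit in both pairs and past the FDR in neither. These rest on 12 to 20 reads in a library.

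The same rule gave calls between mice of one genotype. Between WT2 and WT1 it called miR-1306-5p, 0.62 higher in WT2 on the log2 scale (SE 0.22, FDR 0.0130), where 10.1% of 879 miRNAs were called. With TMM library sizes this call was lost. Between APP4 and APP3 it called miR-185-5p, where 8.05% of 907 miRNAs were called. Where mice of unlike genotype from separate sibling pairs were compared, 1 member was called between APP3 and WT1 (background 11.1%) and 0 between APP4 and WT2 (background 10.6%).

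**Figure D3:**
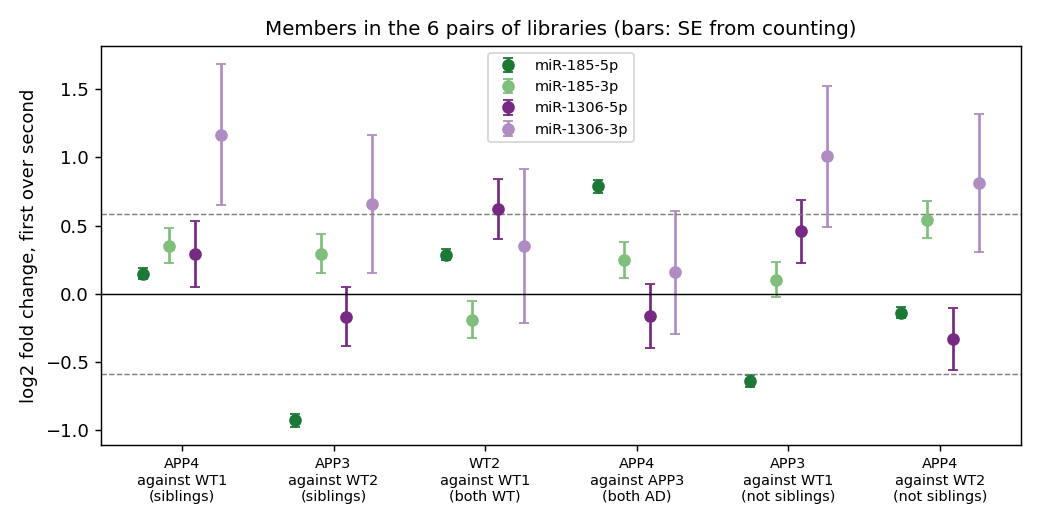
Log2 fold change of the 4 members (vertical axis, first library over second) in each pair of libraries, with SE from counting and the 1.5-fold limits as dashed lines. miR-185-5p lies beyond the limits where APP3 is 1 of the libraries and within them in the other comparisons.

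miR-185-5p varied more between the mice than most miRNAs of its range. Its highest library, WT2, had 1.90 times the level of its lowest, APP3. The median of this fold was 1.39 over the 379 miRNAs that averaged 10 RPM or more, and 91.0% of them had a smaller one than miR-185-5p. For miR-185-3p it was 1.46, and 61.7% of them had a smaller one. The arms of miR-1306 averaged less than 10 RPM and lie outside this background. Their folds were 1.54 for miR-1306-5p and 2.28 for miR-1306-3p, the latter on 12 to 20 reads in a library.

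With the mice as replicates, edgeR's quasi-likelihood test over 4 libraries called 0 of 623 miRNAs at an adjusted p under 0.05 (a background of 0%), with 36 at an unadjusted p under 0.05 and 0 called by DESeq2. All 4 members passed the filter on low counts. miR-185-5p had a mean of 118 ± 16.6 RPM (SD, n = 2) in WT and 93.1 ± 35.1 RPM (SD, n = 2) in AD mice, and a log2 fold change of -0.49 (SE 0.27, adjusted p 0.929 in edgeR). miR-185-3p had 9.56 ± 0.901 RPM (SD, n = 2) in WT and 12.0 ± 1.46 RPM (SD, n = 2) in AD mice, with a log2 fold change of 0.18 (SE 0.20, adjusted p 0.958 in edgeR). For miR-1306-5p the test gave a log2 fold change of -0.09 (SE 0.28), with means of 3.66 ± 1.11 RPM (SD, n = 2) in WT and 3.73 ± 0.306 RPM (SD, n = 2) in AD mice, and for miR-1306-3p one of 0.79 (SE 0.39, adjusted p 0.850 in edgeR). The means of miR-1306-3p were 0.524 ± 0.0911 RPM (SD, n = 2) in WT and 0.995 ± 0.0774 RPM (SD, n = 2) in AD mice. No member passed this test.

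Whether the genotypes overlap depended on the scaling for the arms of miR-185. TMM moved every log2 difference of APP4 against WT1 by -0.25 and of APP3 against WT2 by -0.02. Scaled in this way, miR-185-5p was at 115.6 RPM (WT1), 131.2 RPM (WT2), 68.2 RPM (APP3) and 107.5 RPM (APP4), with both AD mice below both WT mice. miR-185-3p then had 11.1, 9.02, 10.9 and 11.9 RPM in the same order, and the genotypes overlapped. miR-1306-3p stayed higher in both AD mice under TMM and also relative to the clean reads. The shares of all miRNAs without overlap were worked out on RPM only, so these scalings have no background to set beside them. On RPM, both AD mice were above both WT mice for 2 of the 4 members, miR-185-3p and miR-1306-3p, as for 27% of the 623 miRNAs, and below both for 0 of the 4, as for 8.99%.

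The ratio of the arms of 1 hairpin does not depend on the library total. For miR-185, the 5p arm held 91.3% of the reads of both arms in the library of WT1 (Wilson 95% limits 90.2 and 92.2) and 93.6% in that of WT2 (limits 92.6 and 94.4). It held 86.2% for APP3 (limits 84.4 and 87.7) and 90.1% for APP4 (limits 88.8 and 91.2). For miR-1306 the share was 86.2% (limits 77.4 and 91.9) for WT1 and 88.3% (limits 81.0 and 93.0) for WT2, and 80.8% (limits 72.2 and 87.2) for APP3 and 77.0% (limits 67.1 and 84.6) for APP4. The 5p arm was thus the major one of both hairpins in every library. In both hairpins its share was lower in both AD mice than in both WT mice. For miR-185 the intervals of WT1 and APP4 overlapped, and for miR-1306 each WT interval overlapped each AD interval.

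**Figure D4:**
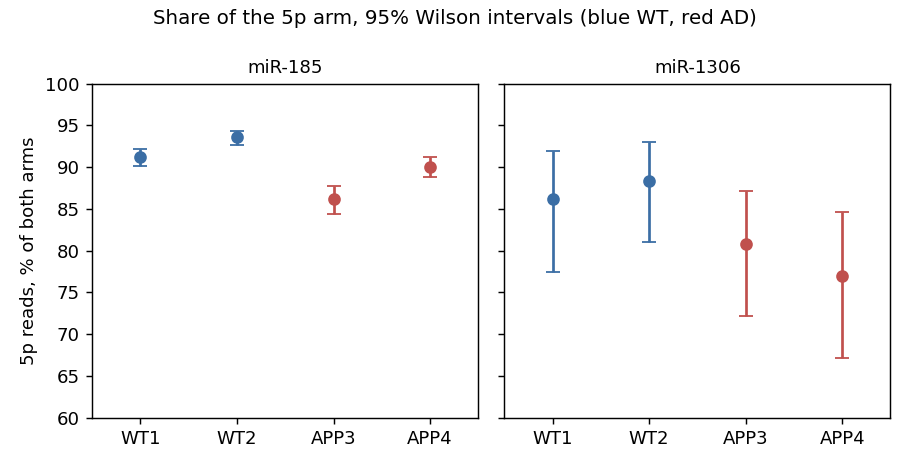
Reads of the 5p arm as a percentage of the reads of both arms (vertical axis from 60 to 100%) for miR-185 and miR-1306 in WT1 and WT2 (blue) and APP3 and APP4 (red), with 95% Wilson intervals. The share lies between 86.2 and 93.6% for miR-185 and between 77.0 and 88.3% for miR-1306, lower in the AD mice in both panels.

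The reads of the 5p arm per read of the 3p arm for miR-185 were 10.4 (WT1), 14.6 (WT2), 6.23 (APP3) and 9.06 (APP4), and they were 6.25, 7.54, 4.20 and 3.35 for miR-1306. Both AD mice were below both WT mice for the 2 hairpins, as for 16% of the 256 hairpins with at least 10 reads of each arm. With 2 mice per genotype, an exact permutation test cannot go below p = 0.333. In limma on the log2 ratio of the arms, the difference between AD and WT mice was -0.71 (SE 0.36, adjusted p 0.855) for miR-185 and -0.85 (SE 0.31, adjusted p 0.855) for miR-1306. The test called 0 of the 256 hairpins (a background of 0%), and 11 had an unadjusted p under 0.05, miR-1306 among them. Lower differences were found for 24 hairpins in the case of miR-185 and for 16 in that of miR-1306, beside a median of -0.04 over the 256.

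**Figure D5:**
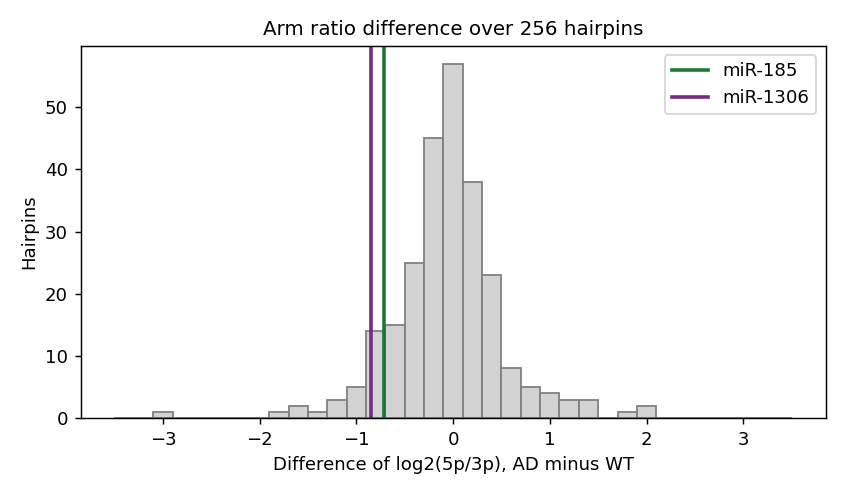
Number of hairpins (vertical axis) by the difference of log2(5p/3p) between AD and WT mice (horizontal axis), with miR-185 and miR-1306 as lines. Both lie in the lower flank of the distribution, at -0.71 and -0.85.

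Between single libraries, Fisher's exact test on the reads of both arms, with the same limits, called the arm ratio of miR-185 between APP3 and WT2 (log2 difference -1.22, SE 0.15, FDR 1.00e-15), where 13.3% of the 256 hairpins were called. It was not called between APP4 and WT1, with -0.20 (SE 0.13) and a background of 15.2%. The ratio of miR-185 was also called in APP3 against WT1 (background 16.8%) and in APP4 against WT2 (background 18.4%). It was not called between the WT mice (background 18.4%) or between the AD mice (background 15.6%), with log2 differences of 0.48 (SE 0.14) and 0.54 (SE 0.14). Both of these passed the FDR (0.00214 and 6.69e-04) and missed only the fold limit, so the ratio also differed between mice of one genotype. For miR-1306 the ratio was called in 0 of these comparisons, with -0.88 (SE 0.57) in APP4 against WT1 and -0.82 (SE 0.55) in APP3 against WT2.

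Patterns over the libraries were compared between the arms. As the root mean square distance of the log2(RPM + 0.5) deviations from the own mean over 4 libraries, miR-185-5p and miR-185-3p were 0.43 apart and miR-1306-5p and miR-1306-3p 0.29. The 3p arms of the 2 hairpins were 0.18 apart and the 5p arms 0.41. miR-185-5p was 0.53 from miR-1306-3p, and miR-185-3p was 0.32 from miR-1306-5p. Each distance from miR-1306-3p, the 0.18 included, rests on 12 to 20 reads of that arm per library. The added 0.5 RPM shrinks the deviations of the arms of miR-1306, and those of miR-1306-3p most. By the same measure, among miRNAs averaging 10 RPM or more, miR-139-3p (distance 0.15), miR-34a-5p (0.15) and miR-671-5p (0.17) were nearest to miR-185-5p, and each was lowest in APP3. miR-361-3p, miR-31-5p and let-7e-3p were nearest to miR-185-3p, at 0.0302 to 0.0333, and each was lowest in WT2 and highest in APP4. miR-153-3p (0.0146), miR-218-1-3p (0.0257) and miR-322-3p (0.0522) were nearest to miR-1306-5p. A likeness over 4 libraries is a description of these libraries.

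Reads of miR-185 outnumbered those of miR-1306 by 34.95 times (WT1) and 27.6 times (WT2), and by 16.2 times (APP3) and 28.7 times (APP4), summed over both arms. The low ratio of APP3 came with its low miR-185-5p, since its miR-1306 reads, at 4.89 RPM, lay between those of APP4 (4.57) and WT2 (5.03).

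Other miRNAs known to share a target with a member were listed with earlier results of these data known. miR-25-3p, which also acts on Atp2a2, was at 654 RPM (WT1), 552 RPM (WT2), 733 RPM (APP3) and 574 RPM (APP4), so it was highest in the library in which miR-185-5p was lowest. Its log2 fold change was 0.41 between APP3 and WT2, under the fold limit. miR-103-3p and miR-107-3p, reported for ADAM10 beside miR-1306-3p, had log2 fold changes of 0.30 and 0.27 in that pair and of 0.10 and 0.22 between APP4 and WT1. Of the 5 miRNAs of this list, 1 was called higher in APP4 against WT1 and 1 lower in APP3 against WT2, both times miR-96-5p, reported for Scarb1 as is miR-223-3p, beside 11.6% and 6.81% of all miRNAs called in these pairs. miR-96-5p had 32.1 RPM in APP4 and between 1.32 and 3.26 in the others. In edgeR 0 of the 5 were called, with a median log2 fold change of 0.05, beside -0.02 over the 623 miRNAs.

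miRNAs made without DGCR8 bypass the protein encoded by the host gene of miR-1306. Of 10 such miRNAs, such as miR-320-3p and miR-484, 0 were called between APP4 and WT1 and 1 between APP3 and WT2, miR-702-3p with a log2 fold change of 0.68, where 11.6% and 6.81% of all miRNAs were called. Their median log2 fold change was 0.19 in the first pair and -0.01 in the second, beside 0.21 and 0.05 over all miRNAs tested. In edgeR 0 of the 9 tested were called, with a median of -0.04.

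The miRNAs listed for blood were present in all libraries. Their summed levels (miR-451a, miR-144-3p, miR-486-5p, miR-142-3p and miR-223-3p) were 4000 and 4633 RPM in the WT mice and 4056 and 3215 RPM in APP3 and APP4. Most of this sum was miR-486-5p, with 3053 to 4417 RPM. Of the 5, 3 were called higher in APP4 against WT1, miR-451a (log2 fold change 0.67), miR-144-3p (1.55) and miR-142-3p (0.86), and 1 in APP3 against WT2, miR-142-3p (0.997). Over all miRNAs, 11.6% were called in the first pair, 87 higher and 17 lower, and 6.81% in the second, 30 higher and 31 lower. miR-122-5p, of liver, had between 0.940 and 4.45 RPM and was called lower in both sibling pairs (-1.43 and -1.19), and the muscle miRNAs miR-1a-3p, miR-133a-3p and miR-206-3p summed to between 95.2 and 122 RPM. Whether the reads of the list for blood came from blood was not tested. The part of blood, liver and epithelium in the levels of the members was not tested either.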

How the data were processed

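Small RNA of the cortex of 4 mice was sequenced. The authors trimmed adapters, filtered reads by quality and length and matched the rest to mouse miRBase with Bowtie and CLC Genomics Workbench, allowing a pair of mismatches and changed ends. They deposited the read counts of 942 mature miRNAs per library without normalization, beside values headed TPM, which the authors made from the same counts as RPM of all clean reads. The deposited RPM were used for the clean reads only, between 22851004 and 31265701. The submitters' notes name CASAVA 1.8 and another genome build than the methods, and no coordinate was taken from either. Reads of variant length or with mismatches are counted on the miRNA they resemble.

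Counts were scaled to the miRNA reads of each library, so a change of an abundant miRNA moves the RPM of the others. Log2 fold changes between libraries had 0.5 read added. Fisher's exact tests (scipy 1.17.1) followed the limits of the study's methods. Genotypes were compared with edgeR 4.0.16 (filterByExpr, TMM, quasi-likelihood test, Benjamini-Hochberg adjustment) and the arms with limma 3.58.1, in R 4.3.3. DESeq2 1.42.0 was an alternative. On simulated data, the Fisher rule for levels, edgeR's test and limma's test were checked. DESeq2's was not. Sibling pairs come from the study's methods, and the deviations of siblings from their genotype means had a correlation of 0.237 across 252 miRNAs. Annotation was GENCODE vM21. Labels and methods differ on the kit used for RNA.

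The members and lists were chosen with earlier results of these data known. Named were the members, miRNAs sharing a seed, miRNAs of chromosome 16 within 5 Mb, miRNAs with a shared target, those made without DGCR8 (by counts), the 3 nearest in pattern to each member with at least 1 RPM, and the neighbours in rank. The qRT-PCR was not analysed here. The study lists miR-185-5p as altered in APP3 against WT2 only. It examined its altered miRNAs by qRT-PCR in a larger set of mice of this age. Of those altered in a single pair, it reports a like trend for miR-183-5p and miR-342-3p only, and so not for miR-185-5p.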

Additional observations from a re-analysis of the deposited data

Results flagged for a closer look

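For both 5p arms, the sign of the difference was not the same in the 2 sibling pairs. miR-185-5p had a log2 fold change of 0.15 in APP4 against WT1 and of -0.93 in APP3 against WT2, and miR-1306-5p one of 0.29 and of -0.17. Neither value of miR-1306-5p was called. With TMM library sizes the first value of miR-185-5p was -0.11, and the pairs no longer differed in direction for that arm. How far the pairs differ was not tested over mice, since a pair holds 1 WT and 1 AD mouse. Both 3p arms had positive values in both pairs.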

How the results depend on the processing

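Between APP4 and WT1, 32 miRNAs were called on values scaled to 1000000 reads, 53 with a minimum of 10 RPM, 65 with the Bonferroni correction and 50 with a limit of 2-fold, against 104, and between APP3 and WT2 they were 23, 30, 34 and 23, against 61. miR-185-5p, the 1 member called in APP3 against WT2, was lost only with the limit of 2-fold, which left 0. Of the 2 members called between mice of one genotype, 1 was left with TMM, with scaling to 1000000 reads, with the minimum of 10 RPM and with Bonferroni, and 0 with 2-fold. With TMM the log2 fold change of miR-185-5p in APP4 against WT1 was -0.11. In edgeR the log2 fold change of miR-1306-5p was 0.035 with no TMM, against -0.09, and lay between -0.34 and 0.23 without 1 mouse, above 0 without WT2 (0.23) and without APP4 (0.042). The sibling pair as a replicate block gave 2 called miRNAs, miR-100-5p and miR-409-5p, and no member. Without 1 mouse the count lay between 0 and 21, highest without APP3, and 0 members were called in any of these fits. Leaving out APP4 gave miR-185-5p a log2 fold change of -0.87 and leaving out APP3 one of -0.20. With each mouse left out the arm ratio difference lay between -0.98 and -0.44 for miR-185 and between -1.01 and -0.69 for miR-1306, and 0 hairpins were called. Fisher's tests of the arms and the comparison of scalings of the members were chosen after seeing the data. A mouse could not be left out of a pair of libraries. The causes were not tested. Depth limits the arms of miR-1306 most, with 12 to 98 reads per library.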

Other observations

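Of the other miRNAs of chromosome 16, 10 come from hairpins within 5 Mb of Mir185 or Mir1306. Between APP4 and WT1, 2 of the 9 tested were called higher and 1 lower, and between APP3 and WT2 1 of 10 was called higher and 0 lower, where 11.6% and 6.81% of all miRNAs were called in these pairs. miR-130b-3p and miR-130b-5p, from a hairpin 1.16 Mb away, were higher in both AD mice than in both WT mice, as were 27% of the 623 miRNAs, miR-130b-3p with 26.8 RPM (WT1), 27.5 RPM (WT2), 38.1 RPM (APP3) and 33.6 RPM (APP4), and neither was called. miR-301b-3p, from the hairpin beside it, was called in both sibling pairs in opposite directions, with log2 fold changes of -0.66 in APP4 against WT1 and 0.81 in APP3 against WT2. Its level was 13.5 RPM (WT1), 10.4 RPM (WT2), 18.2 RPM (APP3) and 8.50 RPM (APP4), so APP3 was highest for miR-301b-3p and lowest for miR-185-5p. In edgeR 0 of the 8 tested within 5 Mb were called, with a median log2 fold change of 0.12. Over the whole chromosome, 28 other miRNAs of the table could be placed, of which 8 of 27 were called between APP4 and WT1 and 3 of 26 between APP3 and WT2, beside the same 11.6% and 6.81%. Of the 8, 6 were higher and 2 lower, in a pair where 87 of the 104 calls over all miRNAs were higher. Some rest on few reads, such as miR-690 (0.0383 RPM for WT1, 0.472 RPM for APP4) and miR-3081-3p (0.383 and 0.997 RPM). With the mice as replicates, edgeR called 0 of the 22 tested over the whole chromosome. Their median log2 fold change was 0.13, beside -0.02 over the 623 miRNAs.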
